A study of Drosophila melanogaster with 16 samples.

Results

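The glutathione S-transferases of the Drosophila melanogaster larval midgut were followed as a gene family. Its members were all genes in the count table with a FlyBase gene identifier and a symbol that begins with Gst, which gave 35 of 17873 genes. By the letter after that prefix they fell into 6 classes, with 11 Delta (D), 14 Epsilon (E), 3 Omega (O), 1 Sigma (S), 4 Theta (T) and 2 Zeta (Z) genes. The rule for members used names alone and no expression value, but it was chosen with earlier results of these data known.

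Glutathione S-transferases join the tripeptide glutathione to reactive or oily compounds, which makes these compounds more soluble and ready for export. The Delta and Epsilon classes are found in insects and their relatives and include enzymes that act on insecticides and plant toxins, while the Omega, Sigma, Theta and Zeta classes are shared with mammals. In insects the midgut is one of the main tissues in which food-borne toxins are broken down, and several Gst genes of the fly respond to the stress regulator Cnc, the fly counterpart of Nrf2, and its inhibitor Keap1.

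The study silenced Hnf4, which encodes a nuclear receptor that regulates lipid metabolism, in the absorptive cells (enterocytes) of the midgut. Females with the enterocyte driver mex-GAL4 were mated with males of the UAS-Hnf4 RNAi line, whose transgene sits in attP40, to give Hnf4i larvae, and with attP40 males to give control larvae, so that larvae of both genotypes carried mex-GAL4. Midguts were dissected from larvae fed yeast only and kept at 25 °C in vials of 40 embryos, on day 4 after egg laying (larvae newly in the third instar, with 10 midguts pooled for a library) and on day 3 (larvae late in the second instar, with 30 pooled). The groups were Hnf4i on day 4, control on day 4, Hnf4i on day 3 and control on day 3, with 4 biological replicates each and 16 libraries of polyadenylated RNA in all. One hairpin was used, and the fathers of both crosses came from different stocks, so that silencing and genetic background cannot be told apart. Day 4 libraries also differ from day 3 libraries in the number of midguts, which cannot be told apart from age.

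The libraries held 44546248 to 83418453 counts. All 7 enterocyte markers were detected in each group, and markers of salivary gland summed to at most 1.21 CPM (counts scaled to a common library total) in any library. Markers of fat body, a neighbouring tissue, summed to 1116, 855, 12.8 and 2823 CPM in the Hnf4i libraries of day 4 (replicates 1 to 4) and to 23.3, 30.5, 141 and 36.5 CPM in the control libraries of day 4, against 18.1 to 41.6 CPM in Hnf4i and 11.7 to 15.7 CPM in control libraries of day 3. Hnf4i replicate 2 of day 4 also held 52.8 CPM of Malpighian tubule markers, where the other libraries held 2.68 to 5.09 CPM. Day 4 results are therefore also given without the 4 libraries whose fat body sum was at least 100 CPM (control replicate 3 and Hnf4i replicates 1, 2 and 4), which leaves 1 Hnf4i library of day 4 that is assumed to vary like the others. In these bulk samples, fewer cells of a type and less RNA per cell cannot be told apart.

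Hnf4 itself was the check of the target. Its level, in CPM scaled between libraries by the TMM method, was 67.4, 58.8, 63.8 and 68.3 in Hnf4i midguts of day 4, against 126, 124, 134 and 126 in control midguts of day 4. On day 3 it was 45.7, 48.7, 50.6 and 48.5 in Hnf4i midguts and 92.9, 92.9, 88.0 and 94.0 in control midguts. The groups did not overlap on either day, and Hnf4 stood at 50.6% of control on day 4 (edgeR quasi-likelihood test, adjusted p = 3.90e-10) and at 52.6% on day 3 (adjusted p = 2.01e-09). An exact two-sided permutation test gave p = 0.0286 on each day, the smallest value that 4 libraries against 4 allow. The libraries come from whole midguts, in which Hnf4 transcripts of cells without the driver are counted too.

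Most of the family lies in a pair of gene clusters (Ensembl annotation, BDGP6 build). The 11 Delta genes fill 20.8 kb of chromosome 3R (12364776 to 12385624), and 10 of the 14 Epsilon genes, GstE1 to GstE10, fill 13.2 kb of chromosome 2R (18396638 to 18409835). GstE11 (2R, 18503608 to 18505025), GstE12 (2R, 24766718 to 24768172), GstE13 (2R, 9122125 to 9123309) and GstE14 (2R, 13239729 to 13241013) lie apart from them. GstT1 (2R, 9605988 to 9607184) and GstT2 (2R, 9607292 to 9608350) are neighbours on the same strand, whereas GstT3 (X, 20467455 to 20469796) and GstT4 (X, 13404749 to 13409323) lie far from each other. The Omega genes GstO3, GstO2 and GstO1 are neighbours on 3L (8518885 to 8524866), GstZ1 and GstZ2 on 3R (9455517 to 9460652), and GstS1 is alone on 2R (17093246 to 17099501). Neighbours within the Delta and Epsilon clusters are close paralogs, and how reads that fit several of them were counted is not given in the sources used here, so that the split of counts between such neighbours is uncertain. Exons of GstE9, GstE12, GstE13, GstO2 and GstT2 share 6 to 223 bases with a gene on the opposite strand outside the family, and those of GstE1 and GstE10 share 20 bases with each other. The widest overlap is the one between GstT2 and CG12926.

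The members spanned a wide range of levels. Per kilobase of exon, 14 of the 35 members averaged at least 100 CPM over the 16 libraries, 29 at least 10 CPM and 30 at least 1 CPM, and GstE14, GstE2 and GstD11 were below the minimum count for testing, which left 32 members tested. GstE14, also called noppera-bo, acts in ecdysone synthesis in the prothoracic gland. GstD1, which can detoxify DDT and is widely used as a reporter of Cnc activity, was the highest member in every group. It reached 1885 CPM per kilobase in Hnf4i midguts of day 4, 1750 in control midguts of day 4, 1652 in Hnf4i midguts of day 3 and 1735 in control midguts of day 3, and its library values did not overlap those of the next member in any group. GstD1 alone made up 26.1 to 32.3% of the CPM of the family, and GstD1, GstD2, GstS1 and GstE3 together made up 45.7 to 59.2%.

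**Figure D1:**
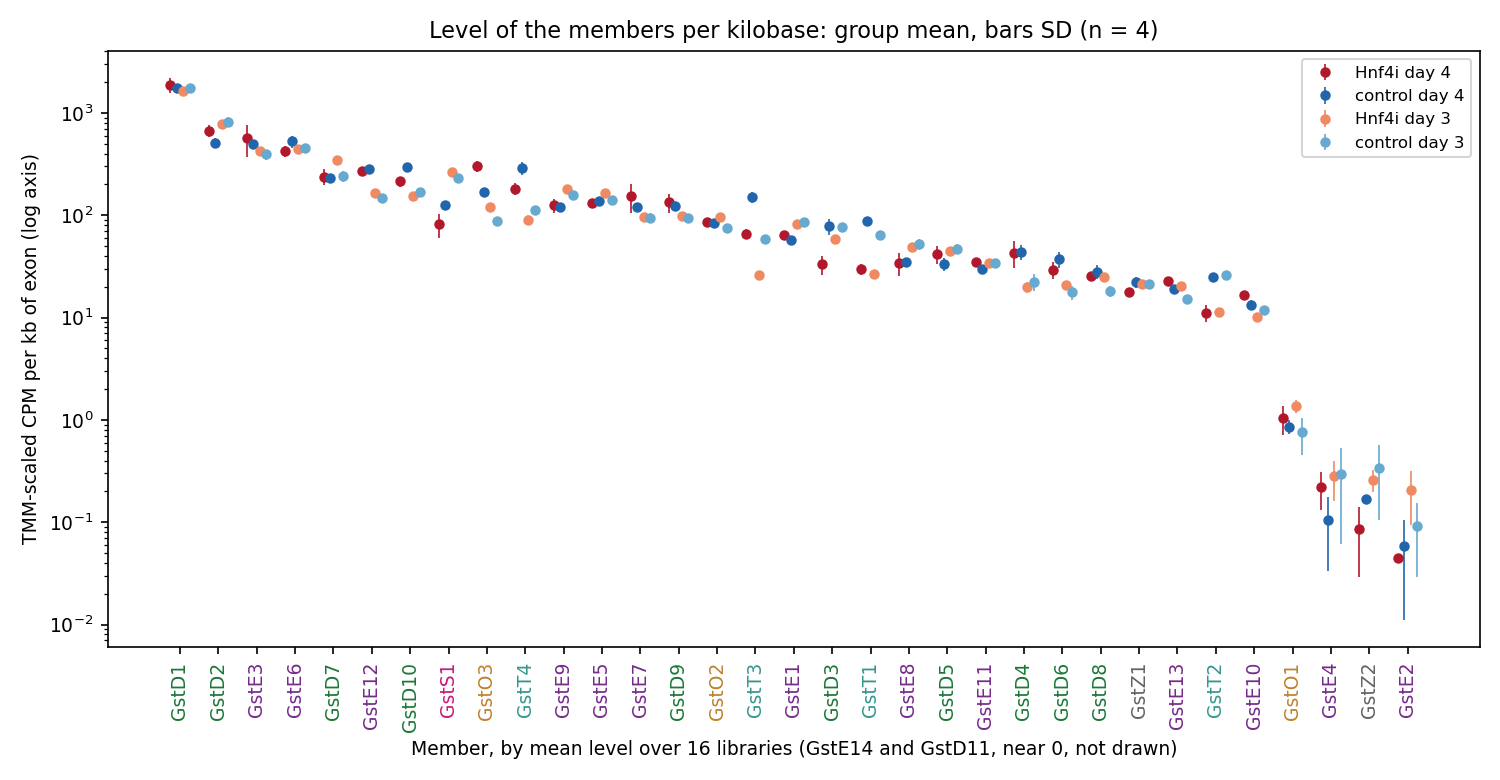
Level of 33 members per kilobase of exon, as the mean of TMM-scaled CPM in each group on a log axis, with bars for the SD of 4 libraries and members ordered by their mean over 16 libraries. GstD1 stands highest at 1652 to 1885 CPM per kilobase, and the members from GstO1 rightwards lie far below the others.

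The highest members of the other classes over the 16 libraries were GstE3 in the Epsilon, GstO3 in the Omega, GstT4 in the Theta and GstZ1 in the Zeta class, at 470, 169, 169 and 20.5 CPM per kilobase. Further down, much of the order was not resolved. Of the 34 pairs of neighbours in the order of levels, 25 overlapped in their library values in Hnf4i midguts of day 4, 25 in control midguts of day 4, 17 in Hnf4i midguts of day 3 and 21 in control midguts of day 3. GstO1, GstE4 and GstZ2 passed the filter at averages of only 1.01, 0.225 and 0.213 CPM per kilobase. In the plot of levels per kilobase, the group means of GstO3, GstT3 and GstS1 lie visibly apart.

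Members of the Theta class were lower in Hnf4i midguts on both days, and few members of the other classes were called. The term called is used of a gene with an adjusted p under 0.05 over all 9801 genes tested and a log2 fold change of 0.5 or more in either direction. On day 4, 7 of the 32 members were called, 6 lower and 1 higher in Hnf4i midguts, where 12.2% of all genes tested were called (6.71% lower and 5.46% higher). Those lower were GstT1, GstT2, GstT3, GstT4, GstD3 and GstS1, and GstO3 was higher. On day 3, 4 of the 32 members were called, where 3.97% of all genes were called (2.46% lower and 1.51% higher). GstT1, GstT2 and GstT3 were lower and GstD7 was higher. The median log2 fold change of the 32 members was 0.01 on day 4 and -0.03 on day 3, beside 0.02 and 0.01 over all genes. Under library totals with no TMM factor the median of the members became 0.11 on day 4 and 0.04 on day 3, so that on day 3 its sign turned, and the share of higher genes among all those called was 59.6% in place of 44.8% on day 4 and 50.1% in place of 38.0% on day 3. That scaling moved the median of all genes by 0.11 on day 4.

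**Figure D2:**
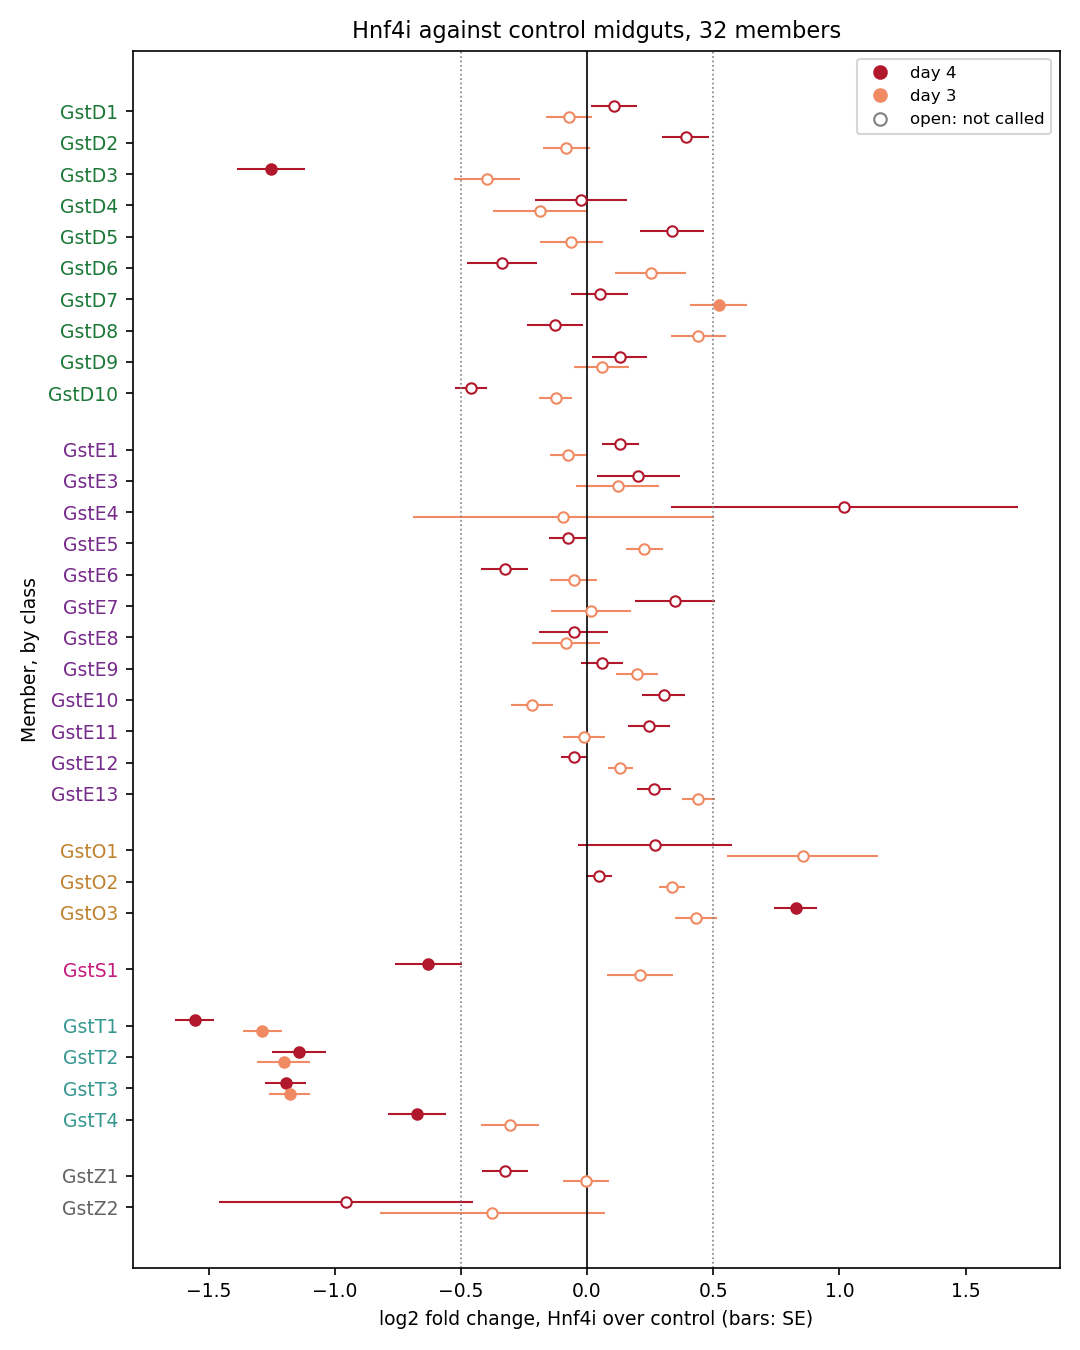
Log2 fold change of Hnf4i over control midguts for the 32 tested members by class, on day 4 (dark) and day 3 (light), with bars for the SE and open points for members not called; dotted lines mark 0.5 in either direction. The Theta members lie between -1.56 and -0.30, and no Epsilon member is drawn as called on either day.

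By library values alone, 8 members lay fully below and 3 fully above control in Hnf4i midguts of day 4, where 24.2% of all genes did not overlap between the groups. On day 3, 7 members lay fully below and 11 fully above control, where 17.4% of all genes did not overlap. With adjusted p under 0.05 and no minimum fold, 14 members passed on day 4, where 27.5% of all genes did, and 8 on day 3, where 8.38% did. Both days use separate libraries, and GstT1, GstT2 and GstT3 were the members called in both.

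GstT1 had the largest decrease among the members called on each day. Theta class enzymes act in other animals on small halogenated and lipid peroxide substrates. GstT1 had 31.2, 33.7, 24.6 and 29.2 CPM in Hnf4i midguts of day 4, against 90.6, 92.6, 85.3 and 80.3 CPM in control midguts of day 4. On day 3 it had 25.0, 26.3, 26.4 and 27.7 CPM in Hnf4i midguts and 63.4, 66.0, 62.2 and 65.6 CPM in control midguts. No Hnf4i library reached any control library on either day. GstT1 stood at 34.0% of control on day 4 (log2 fold change -1.56 ± 0.08 SE, adjusted p = 1.59e-10) and at 41.0% on day 3 (-1.29 ± 0.08, adjusted p = 3.45e-09).

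GstT2, the next gene downstream, had 9.80, 12.5, 9.29 and 8.04 CPM in Hnf4i midguts of day 4, against 22.3, 24.1, 21.0 and 19.9 CPM in control midguts of day 4. The day 3 libraries had 9.88, 10.4, 10.2 and 9.33 CPM in Hnf4i midguts and 21.6, 22.4, 22.0 and 25.5 CPM in control midguts. Hnf4i and control did not overlap on either day, whereas the days overlapped within each genotype. Its log2 fold change was -1.14 ± 0.11 on day 4 (adjusted p = 4.20e-07) and -1.20 ± 0.11 on day 3 (adjusted p = 4.06e-07). CG12926, whose exons overlap GstT2 on the opposite strand, had log2 fold changes of 0.37 on day 4 (adjusted p = 0.000264) and 0.03 on day 3 (adjusted p = 0.901). The strand setting of the counting is not given in the sources used here, and reads from the shared bases could count for either gene if strand was ignored.

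GstT3 had 80.5, 83.0, 91.9 and 103 CPM in Hnf4i midguts of day 4, against 223, 221, 172 and 203 CPM in control midguts of day 4. On day 3 it had 36.0, 36.7, 34.0 and 35.4 CPM in Hnf4i midguts and 82.0, 77.6, 80.0 and 82.0 CPM in control midguts. Both genotypes were higher on day 4 than on day 3, and no Hnf4i library reached a control library of its own day. The log2 fold change of silencing was -1.19 ± 0.08 on day 4 (adjusted p = 7.58e-09) and -1.18 ± 0.08 on day 3 (adjusted p = 2.37e-08).

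GstT4, the highest Theta member, had 249, 179, 225 and 235 CPM in Hnf4i midguts of day 4, against 291, 333, 389 and 403 CPM in control midguts of day 4. The day 3 libraries had 110, 116, 122 and 93.5 CPM in Hnf4i midguts and 139, 151, 123 and 132 CPM in control midguts. The libraries did not overlap on either day, with a narrow gap on day 3. Silencing gave a log2 fold change of -0.67 ± 0.12 on day 4 (adjusted p = 0.000298), and -0.30 ± 0.12 on day 3 did not pass (adjusted p = 0.136). The difference between the days was not called for any Theta member, with interaction estimates of -0.37 to 0.06 on the log2 scale. Without the day 4 libraries with fat body transcripts it was called for GstT1 (-0.52, adjusted p = 0.00529).

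The median log2 fold change of the 4 Theta members was -1.17 on day 4 and -1.19 on day 3. Their summed level was 351 ± 30.5 CPM in Hnf4i midguts of day 4 and 668 ± 32.5 CPM in control midguts of day 4, and 182 ± 12.0 CPM in Hnf4i midguts of day 3 and 304 ± 12.4 CPM in control midguts of day 3 (SD, n = 4 each). As a share of the family this was 6.72 ± 0.759% in Hnf4i and 12.4 ± 0.871% in control midguts on day 4, and 3.61 ± 0.213% in Hnf4i and 6.08 ± 0.153% in control midguts on day 3. The sum over all members overlapped between Hnf4i and control on each day, at 5259 ± 631, 5418 ± 276, 5050 ± 83.8 and 5004 ± 190 CPM in Hnf4i of day 4, control of day 4, Hnf4i of day 3 and control of day 3, which is 0.50 to 0.54% of the scaled counts. With library totals and no TMM factor these means were 4942, 4742, 5701 and 5376 CPM in the same order of groups.

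**Figure D3:**
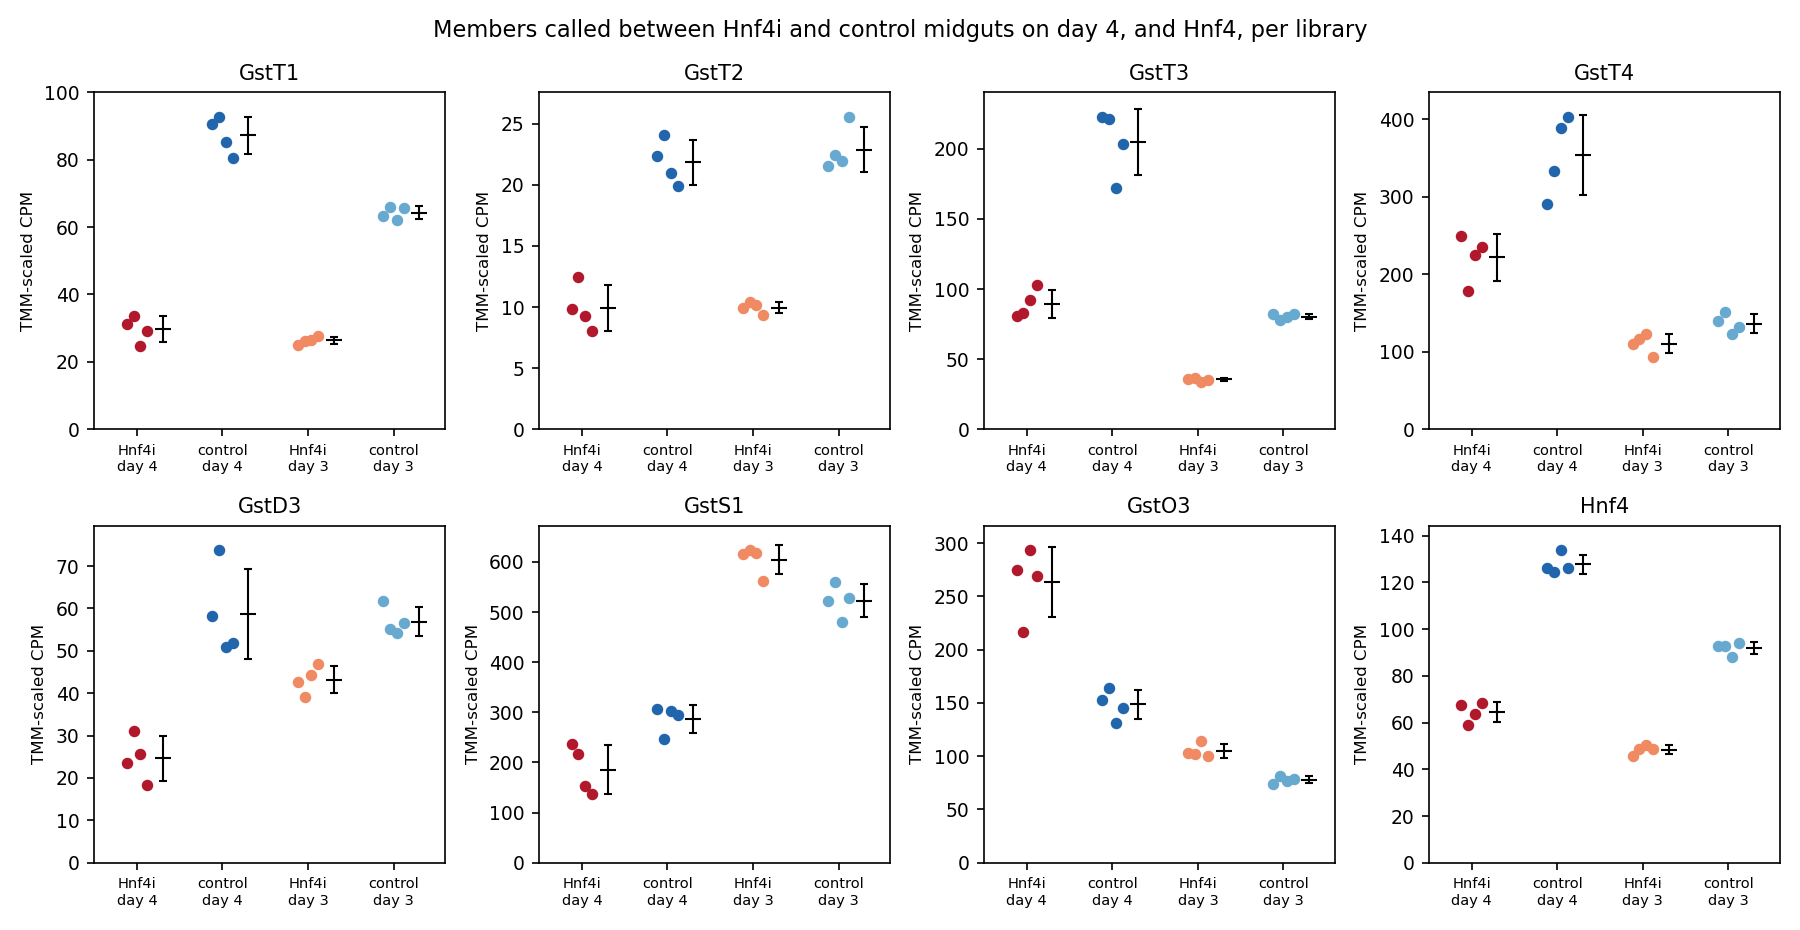
TMM-scaled CPM of the 7 members called between Hnf4i and control midguts on day 4, and of Hnf4, with a point for each library and black marks for the mean and SD of 4 libraries. GstT1 reads 24.6 to 33.7 CPM in Hnf4i and 80.3 to 92.6 CPM in control midguts of day 4; GstO3 is the panel in which Hnf4i lies above control on both days.

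In the Omega class, GstO3 was higher in Hnf4i midguts. Omega enzymes resemble glutaredoxins and reduce disulfides and dehydroascorbate, and the fly gene se of this group makes an eye pigment precursor. GstO3 had 275, 217, 293 and 269 CPM in Hnf4i midguts of day 4, against 153, 164, 131 and 145 CPM in control midguts of day 4. On day 3 it had 103, 102, 114 and 100 CPM in Hnf4i midguts and 73.8, 81.8, 76.7 and 78.7 CPM in control midguts. All Hnf4i libraries lay above all control libraries on both days. Its log2 fold change was 0.83 ± 0.08 on day 4 (adjusted p = 1.14e-06) and 0.43 ± 0.08 on day 3 (adjusted p = 0.00245), where it was under the minimum fold. With library totals and no TMM factor the day 3 change of GstO3 was called. Its neighbour GstO2 had log2 fold changes of 0.05 on day 4 (adjusted p = 0.555) and 0.34 on day 3 (adjusted p = 0.000265, under the minimum fold). The summed Omega level was 415 ± 28.2 CPM in Hnf4i and 295 ± 22.5 CPM in control midguts on day 4, and 272 ± 7.47 CPM in Hnf4i and 210 ± 6.46 CPM in control midguts on day 3.

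GstS1, the only Sigma member, is abundant in the muscle of the fly, is found in its hemocytes and conjugates products of lipid peroxidation. It had 237, 216, 153 and 137 CPM in Hnf4i midguts of day 4, against 306, 247, 302 and 294 CPM in control midguts of day 4. The day 3 libraries had 616, 623, 618 and 561 CPM in Hnf4i midguts and 523, 560, 480 and 528 CPM in control midguts. The Hnf4i libraries were therefore the lower ones on day 4 and, by a small margin, the upper ones on day 3. The log2 fold change was -0.63 ± 0.13 on day 4 (adjusted p = 0.00183) and 0.21 ± 0.13 on day 3 (adjusted p = 0.441).

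Markers of other cells that express GstS1 were read beside it. The 11 visceral muscle markers summed to 4366 to 6184 CPM in Hnf4i and 6693 to 7636 CPM in control midguts of day 4, and to 6211 to 8223 CPM in Hnf4i and 7672 to 8407 CPM in control midguts of day 3. Of these markers 3 were called lower and 0 higher in Hnf4i midguts of day 4, with a median log2 fold change of -0.41. Over all genes 6.71% were called lower and 5.46% higher on day 4, with a median of 0.02. The 8 hemocyte markers summed to 313 to 362 CPM in Hnf4i and 501 to 531 CPM in control midguts of day 4, and to 298 to 397 CPM in Hnf4i and 379 to 437 CPM in control midguts of day 3. That sum was carried mostly by the scavenger receptor crq, at 231 to 264 CPM in Hnf4i and 395 to 418 CPM in control midguts of day 4, and the list did not move in one direction. Of the 6 hemocyte markers tested on day 4, 2 were called higher and 2 lower in Hnf4i midguts, with a median log2 fold change of 0.04. NimC1 had 2.44 ± 1.05 CPM in Hnf4i and 0.622 ± 0.198 CPM in control midguts of day 4, and Hml ranged over 0.592 to 2.97 CPM in Hnf4i and 0.694 to 2.12 CPM in control midguts. The part of muscle and hemocytes in the result for GstS1 was not tested.

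In the Delta cluster, GstD3 was the only member called on day 4. It had 23.6, 31.0, 25.7 and 18.2 CPM in Hnf4i midguts of day 4, against 58.3, 73.7, 50.8 and 51.8 CPM in control midguts of day 4. On day 3 it had 42.7, 39.0, 44.2 and 46.8 CPM in Hnf4i midguts and 61.7, 55.0, 54.1 and 56.5 CPM in control midguts. Neither day had an overlap between the groups, and the gap was wider on day 4. The log2 fold change was -1.25 ± 0.14 on day 4 (adjusted p = 2.39e-06) and -0.40 ± 0.13 on day 3 (adjusted p = 0.0819). Its flanking paralogs were not called, with log2 fold changes on day 4 of 0.39 for GstD2 (adjusted p = 0.00508, under the minimum fold) and -0.02 for GstD4 (adjusted p = 0.943).

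GstD7 was called higher in Hnf4i midguts on day 3. It had 145, 166, 190 and 220 CPM in Hnf4i midguts of day 4 and 180, 193, 158 and 164 CPM in control midguts of day 4, where the libraries overlapped. The day 3 libraries had 289, 250, 245 and 261 CPM in Hnf4i midguts and 194, 191, 150 and 193 CPM in control midguts. Its log2 fold change was 0.05 ± 0.11 on day 4 (adjusted p = 0.793) and 0.52 ± 0.11 on day 3 (adjusted p = 0.00576), and the difference between the days did not pass (interaction -0.47, adjusted p = 0.0828). The call on day 3 was lost without control replicate 3 of that day (0.44) and without Hnf4i replicate 1 of that day (0.47), when the change fell under the minimum fold.

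The remaining Delta members and the whole Epsilon class were not called between Hnf4i and control midguts. Of the 12 Epsilon members tested, 5 had an unadjusted p under 0.05 by edgeR on each day, and DESeq2 called 0 on either day. The share of all genes at that unadjusted p is not given here. With adjusted p under 0.05 and no minimum fold, 4 Epsilon members passed on day 4 and 1 on day 3, where 27.5% and 8.38% of all genes did. GstD1 had 1589 ± 262 CPM in Hnf4i and 1475 ± 122 CPM in control midguts of day 4, and 1392 ± 63.2 CPM in Hnf4i and 1463 ± 65.6 CPM in control midguts of day 3. Its log2 fold changes were 0.11 (adjusted p = 0.424) and -0.07 (adjusted p = 0.771). The Epsilon members ranged from -0.33 to 1.02 on day 4 and from -0.22 to 0.44 on day 3, with the value of 1.02 at GstE4, one of the lowest members tested (adjusted p = 0.303). In the Zeta class GstZ1, whose mammalian counterpart isomerises maleylacetoacetate in the breakdown of tyrosine, had 16.1, 17.9, 14.6 and 15.9 CPM in Hnf4i midguts and 19.3, 24.0, 18.3 and 19.2 CPM in control midguts of day 4. The Hnf4i libraries all lay below, with a log2 fold change of -0.33 (adjusted p = 0.0147) that is under the minimum fold.

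Without the day 4 libraries with fat body transcripts, all 7 day 4 calls were kept, with log2 fold changes of -1.81 for GstT1, -1.22 for GstT2, -1.20 for GstT3, -0.58 for GstT4, -1.23 for GstD3, -0.86 for GstS1 and 0.95 for GstO3. In that fit GstD2 (0.55), GstD5 (0.63), GstE3 (0.77) and GstE7 (0.80) were also called higher. Like the kept calls, these rest on Hnf4i replicate 3 of day 4 alone. The Hnf4i libraries of day 4 differed among themselves in these genes: GstE3 had 301, 320, 616 and 475 CPM in replicates 1 to 4, against 334 to 395 CPM in control midguts of day 4, and GstE7 had 83.4, 87.8, 157 and 144 CPM, against 87.1 to 98.9 CPM. Replicates 3 and 4 were the high ones, and they had the lowest and the highest fat body sum. Over the 29 members with at least 1 CPM in every group, the median coefficient of variation between replicates was 13% in Hnf4i and 9.26% in control midguts of day 4, and 5.63% in Hnf4i and 5.96% in control midguts of day 3. Over all genes at that level it was 9.93, 7.64, 6.83 and 6.57% in the same order of groups.

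The step from day 3 to day 4 changed more members, at about the rate of the whole transcriptome. In Hnf4i midguts, 7 members were called higher and 6 lower on day 4, where 42.7% of all genes were called (18.8% higher and 23.9% lower). In control midguts, 8 members were called higher and 5 lower on day 4, where 39.2% of all genes were called (17.0% higher and 22.2% lower). With no minimum fold, 21 members passed in Hnf4i midguts, where 65.0% of all genes did, and 18 in control midguts, where 62.6% did. By library values, 10 members lay fully above and 10 fully below day 3 in Hnf4i midguts, where 58.4% of all genes did not overlap, and 12 lay above and 6 below in control midguts, where 59.0% did not overlap. The median over the members was 0.03 in Hnf4i and 0.16 in control midguts, beside -0.01 and 0.01 over all genes. Library totals with no TMM factor moved the median of all genes by -0.26 in Hnf4i and -0.30 in control midguts, and that of the members to -0.24 and -0.14, so that its sign turned. The share of higher genes among all those called was then 25.0% in place of 44.1% in Hnf4i midguts and 21.1% in place of 43.4% in control midguts, and the members were called 4 higher and 9 lower in Hnf4i, and 6 higher and 8 lower in control midguts.

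**Figure D4:**
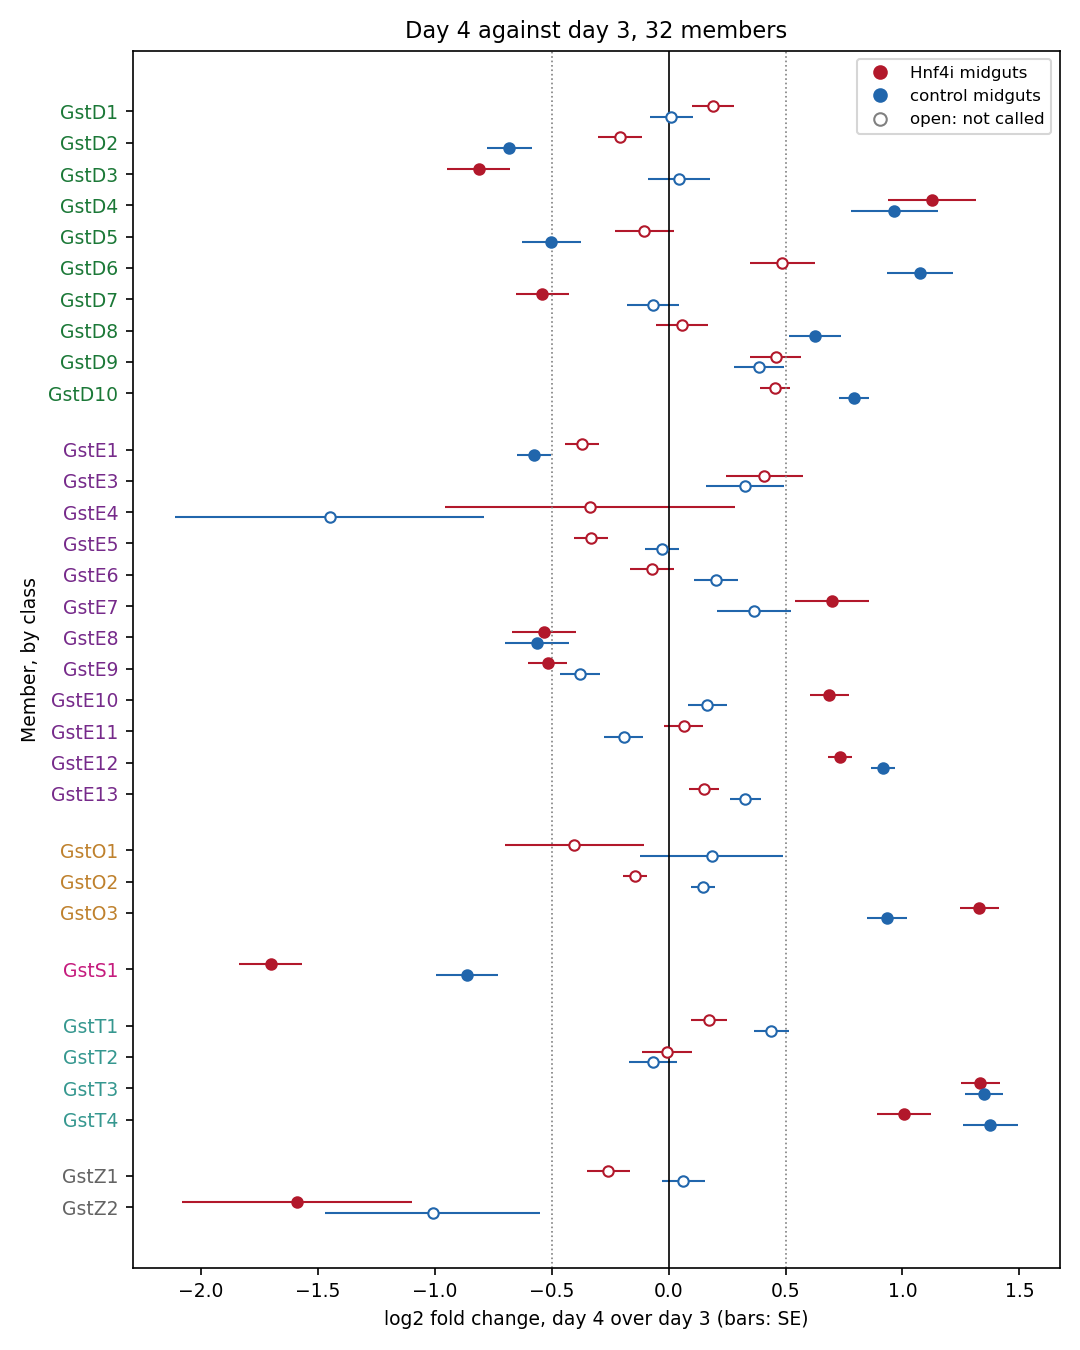
Log2 fold change of day 4 over day 3 for the 32 tested members by class, in Hnf4i midguts (red) and control midguts (blue), with bars for the SE and open points for members not called. GstT3, GstT4, GstO3, GstE12 and GstD4 lie to the right in both genotypes, and GstS1 lies at -1.70 in Hnf4i and -0.86 in control midguts.

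Of the members higher on day 4, GstT3, GstT4, GstO3, GstE12 and GstD4 were called in both genotypes. GstT3 had log2 fold changes of 1.33 ± 0.08 in Hnf4i (adjusted p = 3.79e-10) and 1.35 ± 0.08 in control midguts (adjusted p = 2.75e-10). GstT4 had 1.01 ± 0.12 in Hnf4i (adjusted p = 7.29e-07) and 1.38 ± 0.12 in control midguts (adjusted p = 1.87e-08). GstT1 and GstT2, the Theta pair on 2R, were not called in either genotype, with 0.17 and -0.01 in Hnf4i and 0.44 and -0.07 in control midguts. The Theta members called lower under silencing thus included both those that were called with age and those that were not. GstO3 had 1.33 ± 0.08 in Hnf4i (adjusted p = 5.33e-10) and 0.93 ± 0.08 in control midguts (adjusted p = 4.00e-08).

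GstE12 lies apart from the Epsilon cluster and was among the most abundant members. It had 354, 361, 383 and 417 CPM in Hnf4i midguts of day 4, against 222, 236, 223 and 229 CPM in Hnf4i midguts of day 3. In control midguts it had 384, 383, 404 and 399 CPM on day 4 and 207, 216, 203 and 205 CPM on day 3. Replicates were tight and the days did not overlap, with log2 fold changes of 0.73 ± 0.05 in Hnf4i (adjusted p = 1.54e-09) and 0.92 ± 0.05 in control midguts (adjusted p = 1.16e-10). The call in Hnf4i midguts was lost with library totals and no TMM factor (0.47).

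Within the Delta cluster, members moved in both directions with age. GstD10, at the end of the cluster, had 163, 184, 190 and 212 CPM in Hnf4i midguts of day 4 and 135, 136, 136 and 138 CPM in those of day 3. In control midguts it had 259, 277, 248 and 243 CPM on day 4 and 152, 149, 148 and 145 CPM on day 3. The days did not overlap in either genotype, and the change was called in control midguts (0.79 ± 0.06, adjusted p = 1.09e-08) but was under the minimum fold in Hnf4i midguts (0.46 ± 0.06, adjusted p = 7.26e-06). The difference between the genotypes had an interaction estimate of -0.33 (adjusted p = 0.0292), under the minimum fold.

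GstD6 had 26.7, 36.0, 28.3 and 24.7 CPM in control midguts of day 4 and 15.2, 14.7, 10.5 and 14.6 CPM in control midguts of day 3, a log2 fold change of 1.07 ± 0.14 (adjusted p = 3.65e-06). In Hnf4i midguts it had 19.1 to 28.8 CPM on day 4 and 15.4 to 17.8 CPM on day 3 (0.49, adjusted p = 0.00563, under the minimum fold). That change sat near the minimum fold, and was called by DESeq2 (0.501) and with its size factors in edgeR (0.502). It was also called without Hnf4i replicate 1 of day 3 (0.52), or without Hnf4i replicate 1 (0.56) or 2 (0.53) of day 4. GstD2, next to GstD1 on the chromosome, was lower on day 4 in control midguts. It had 337, 421, 351 and 391 CPM in control midguts of day 4 and 693, 547, 575 and 587 CPM in control midguts of day 3, a log2 fold change of -0.68 ± 0.09 (adjusted p = 7.25e-06). In Hnf4i midguts it had 414 to 550 CPM on day 4 and 534 to 593 CPM on day 3, which overlapped (-0.21, adjusted p = 0.0629).

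GstD4 was called higher on day 4 in both genotypes (1.13 in Hnf4i, adjusted p = 4.63e-05, and 0.96 in control midguts, adjusted p = 0.000224). GstD8 was called higher in control midguts (0.63, adjusted p = 9.31e-05) and GstD5 lower (-0.50, adjusted p = 0.00223). The call of GstD5 sat at the minimum fold and was lost without control replicate 1 of day 3, without control replicates 3 or 4 of day 4 and without Hnf4i replicate 3 of day 4. In Hnf4i midguts GstD3 (-0.81 ± 0.13, adjusted p = 4.57e-05) and GstD7 (-0.54, adjusted p = 0.000442) were called lower. That of GstD7 was lost without Hnf4i replicate 1 of day 3 (-0.49) or of day 4 (-0.45), and without the day 4 libraries with fat body transcripts (-0.46). The control calls of GstD10 (0.495) and GstD8 (0.33) fell under the minimum fold with library totals and no TMM factor. GstD1 and GstD9 were called in neither genotype.

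In the Epsilon cluster most calls were of modest size. GstE10 had 17.6, 19.3, 20.0 and 17.6 CPM in Hnf4i midguts of day 4 and 12.5, 12.4, 10.6 and 10.7 CPM in those of day 3, a log2 fold change of 0.69 ± 0.08 (adjusted p = 1.47e-06). In control midguts it had 15.2, 17.3, 13.7 and 14.1 CPM on day 4 and 12.7, 13.5, 13.3 and 14.2 CPM on day 3 (0.17, adjusted p = 0.0962), with overlap. GstE1, its neighbour on the opposite strand, was called lower in control midguts, with 43.3, 53.0, 48.5 and 47.4 CPM on day 4 and 72.6, 71.5, 73.5 and 69.1 CPM on day 3 (-0.58 ± 0.07, adjusted p = 2.52e-06).

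GstE9 had 79.7, 103, 95.2 and 116 CPM in Hnf4i midguts of day 4 and 139, 144, 144 and 137 CPM in those of day 3, a log2 fold change of -0.52 ± 0.08 (adjusted p = 3.71e-05). That call was lost without Hnf4i replicate 1 of day 4 (-0.43). GstE7 was called higher in Hnf4i midguts (0.70, adjusted p = 0.000880), at 1.1 without the day 4 libraries with fat body transcripts. The Hnf4i calls of GstE7 and GstE10 fell under the minimum fold (0.43 each) with library totals and no TMM factor. GstE8 was called lower in Hnf4i (-0.53, adjusted p = 0.00244) and in control midguts (-0.56, adjusted p = 0.00165). Its call in Hnf4i midguts was lost without Hnf4i replicate 1 of day 3 (-0.47) or without Hnf4i replicates 1 (-0.42) or 2 (-0.46) of day 4 or all 4 libraries with fat body transcripts (-0.47), and its call in control midguts without control replicate 2 of day 3 (-0.48). GstE3 was not called in Hnf4i midguts (0.41) but was called there without the libraries with fat body transcripts (0.94, adjusted p = 1.49e-05).

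GstS1 was lower on day 4 in both genotypes, at -1.70 ± 0.14 in Hnf4i (adjusted p = 7.29e-09) and -0.86 ± 0.13 in control midguts (adjusted p = 2.19e-05). Over the same step the summed enterocyte markers were higher on day 4 in both genotypes, at 18952 to 29573 CPM in Hnf4i and 20828 to 24458 CPM in control midguts of day 4, against 7876 to 11757 CPM in Hnf4i and 7954 to 9347 CPM in control midguts of day 3. That sum was carried mostly by the protease gene Jon65Aiv, and of the 7 markers 5 were called higher in Hnf4i (median log2 fold change 0.63) and 3 in control midguts (0.15). The driver's namesake mex1 had 439 ± 37.6 CPM in Hnf4i and 361 ± 23.2 CPM in control midguts of day 4, and 286 ± 32.2 CPM in Hnf4i and 353 ± 9.23 CPM in control midguts of day 3. Of the 11 visceral muscle markers, 1 was called higher and 5 lower on day 4 in Hnf4i midguts (median -0.46). In control midguts 1 was called higher and 0 lower (-0.16). Of the 6 hemocyte markers tested, 2 were higher and 2 lower in Hnf4i (0.76), and 3 higher and 1 lower in control midguts (0.66). Over all genes, 18.8% were called higher and 23.9% lower in Hnf4i, and 17.0% and 22.2% in control midguts. The part of these shifts in the values of GstS1 and the other members was not tested. GstZ2 was called lower on day 4 in Hnf4i midguts (-1.59 ± 0.49, adjusted p = 0.00928), at 0.236, 0.130, 0.0648 and 0.363 CPM on day 4 and 0.517, 0.819, 0.610 and 0.481 CPM on day 3, or between 3 and 19 counts on day 4 and between 26 and 54 on day 3. Without the libraries with fat body transcripts its estimate was -3.18. In control midguts GstZ2 had -1.01 and was not called. It was called there by DESeq2 (-1.02, adjusted p = 0.0499) and with library totals and no TMM factor (-1.30). The interaction was not called for GstZ2.

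The interaction of silencing and day asks whether the effect of silencing differed between days. It was called for 4 of the 32 members, where 5.03% of all genes were called (2.59% higher and 2.44% lower), and 8 members passed with no minimum fold, where 8.67% of all genes did. It uses all 4 groups and so shares every library with the comparisons above. GstD3 (-0.86 ± 0.19, adjusted p = 0.00878) and GstS1 (-0.84 ± 0.19, adjusted p = 0.00940) had a lower Hnf4i to control ratio on day 4 than on day 3. GstD8 had 18.7, 19.7, 21.3 and 23.2 CPM in Hnf4i and 23.8, 26.9, 21.3 and 18.4 CPM in control midguts of day 4, and 21.6, 19.0, 19.7 and 19.5 CPM in Hnf4i and 14.6, 16.9, 12.3 and 14.9 CPM in control midguts of day 3 (-0.57 ± 0.16, adjusted p = 0.0308). GstE10 was the member called with a higher ratio on day 4 (0.52 ± 0.12, adjusted p = 0.0108). The call of GstD8 was lost without control replicates 1 or 3 or Hnf4i replicates 1 or 4 of day 3, or without control replicates 1 or 2 or Hnf4i replicate 1 of day 4 (-0.47 to -0.58 in these fits). It was also lost without the day 4 libraries with fat body transcripts (-0.53, adjusted p = 0.155). That of GstE10 was lost without control replicate 4 or Hnf4i replicates 3 or 4 of day 3, or without control replicates 3 or 4 or Hnf4i replicate 3 of day 4 (0.48 to 0.49). The count of members called was 2 without Hnf4i replicate 4 of day 3.

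**Figure D5:**
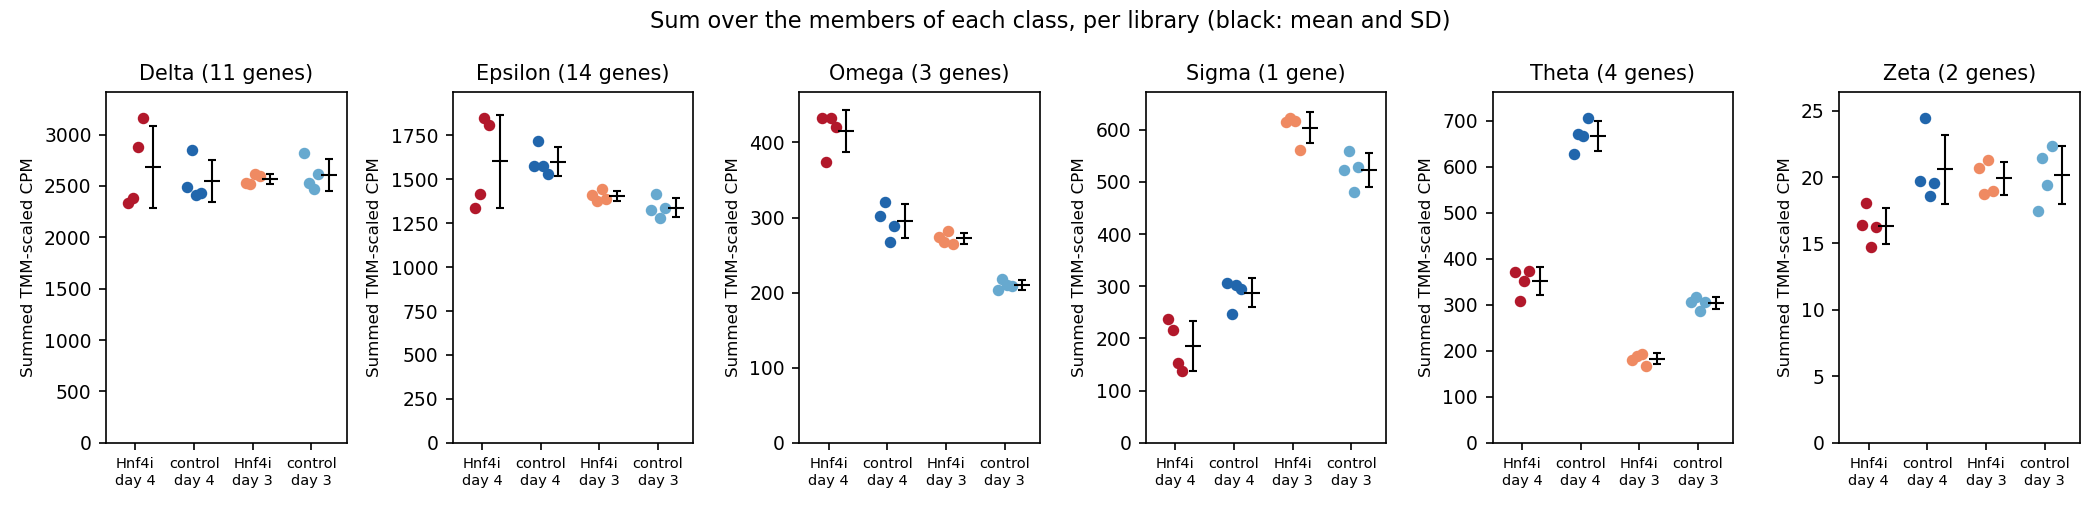
Summed TMM-scaled CPM of the members of each class, with a point for each library and black marks for the mean and SD of 4 libraries. The Theta sum is 351 CPM in Hnf4i and 668 CPM in control midguts of day 4, whereas the Delta and Epsilon sums overlap between Hnf4i and control on both days.

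In all, 21 members were called in at least 1 of the 5 comparisons, and 11 of those tested in none: GstD1, GstD9, GstE3, GstE4, GstE5, GstE6, GstE11, GstE13, GstO1, GstO2 and GstZ1. The share of all genes called in at least 1 of the 5 comparisons is not given here. The comparisons of days alone called 42.7% of all genes in Hnf4i and 39.2% in control midguts. The count of 21 is therefore not read as a trait of the family. The comparisons of days and of silencing share libraries, since each group enters 2 of them, so their counts are not independent of each other.

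Genes that work alongside the transferases were read from 5 lists, of which 56 genes were tested. Over all genes, 5.46% were called higher and 6.71% lower on day 4, and 1.51% higher and 2.46% lower on day 3. In glutathione synthesis and recycling, 1 of 14 genes was called higher and 4 lower in Hnf4i midguts on day 4, and 2 higher and 1 lower on day 3. Gclc, the catalytic subunit of the enzyme that sets the rate of glutathione synthesis, was lower on both days, at 621 ± 107 CPM in Hnf4i and 1065 ± 123 CPM in control midguts of day 4 (log2 fold change -0.78, adjusted p = 3.67e-05) and 565 ± 55.7 CPM in Hnf4i and 839 ± 45.1 CPM in control midguts of day 3 (-0.57, adjusted p = 0.00172). Men, a malic enzyme that makes NADPH, had 461 ± 42.7 CPM in Hnf4i and 1056 ± 50.2 CPM in control midguts of day 4 (-1.20, adjusted p = 5.74e-09), with an interaction of -1.41 (adjusted p = 3.12e-06). Zw, the glucose-6-phosphate dehydrogenase that also makes NADPH, was higher on day 3 (0.53, adjusted p = 4.08e-06). CG1492, another gene of this list at under 1 CPM, was called higher on day 4 (0.85, adjusted p = 0.0404) and day 3 (1.1, adjusted p = 0.0225). Its call was lost without any 1 of 8 libraries on day 4 (adjusted p = 0.0502 to 0.151) and of 5 libraries on day 3 (adjusted p = 0.0598 to 0.0758).

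Among 8 tested genes outside the family that have a transferase or related fold, 2 were called lower and none higher on each day. Mgstl, a microsomal glutathione transferase, had 30.1 ± 4.96 CPM in Hnf4i and 84.9 ± 4.92 CPM in control midguts of day 4 (-1.50, adjusted p = 1.80e-09), and 28.2 ± 1.45 CPM in Hnf4i and 65.7 ± 3.53 CPM in control midguts of day 3 (-1.22, adjusted p = 4.72e-08). Gdap1, which encodes a mitochondrial protein with a transferase fold, was lower too (-1.57 on day 4, adjusted p = 0.000196, and -1.10 on day 3, adjusted p = 0.00576).

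Among 17 antioxidant enzymes, 1 was called higher and 4 lower on day 4, and 2 lower on day 3. Catalase (Cat), which breaks down hydrogen peroxide, had 1208 ± 118 CPM in Hnf4i and 3024 ± 46.7 CPM in control midguts of day 4 (-1.32, adjusted p = 6.15e-11), and 826 ± 34.6 CPM in Hnf4i and 1524 ± 53.4 CPM in control midguts of day 3 (-0.88, adjusted p = 1.75e-08). Gtpx, a glutathione peroxidase relative, was lower on day 4 (-0.76, adjusted p = 5.54e-07) and day 3 (-0.78, adjusted p = 7.98e-07). MsrA, a methionine sulfoxide reductase, was lower on day 4 (-1.20, adjusted p = 0.000548). Its interaction was -1.06 (adjusted p = 0.0391) and that of the peroxiredoxin Prx2 was 0.50 (adjusted p = 0.00122), both near the threshold. That of MsrA was lost without any 1 of 11 libraries (adjusted p = 0.0521 to 0.0836) and that of Prx2 without any 1 of 6, when the estimate fell under the minimum fold. Prx2 was also lost without the day 4 libraries with fat body transcripts (0.38) and with no filter on low counts (0.48), and MsrA with library totals and no TMM factor (adjusted p = 0.0519).

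Of 8 regulators, 2 were called higher on day 4 and 0 on day 3, where 1 had an unadjusted p under 0.05 by edgeR and DESeq2 called 0. The share of all genes at that unadjusted p is not given here. ref(2)P, the fly p62 that binds cargo for autophagy, had 821 ± 193 CPM in Hnf4i and 319 ± 48.9 CPM in control midguts of day 4 (1.36, adjusted p = 6.84e-07), and its interaction was 1.25 (adjusted p = 0.000453). Hr96, a xenobiotic-sensing nuclear receptor, was called at the minimum fold on day 4 (0.50, adjusted p = 0.000385). Its call was lost without control replicates 2 (0.48) or 4 (0.49) or Hnf4i replicates 3 (0.43) or 4 (0.44) of day 4. Of 9 conjugate exporters, Mdr50, a P-glycoprotein relative, was the one called, at 623 ± 164 CPM in Hnf4i and 311 ± 37.5 CPM in control midguts of day 4 (1.00, adjusted p = 4.22e-05) and 479 ± 10.0 CPM in Hnf4i and 294 ± 23.8 CPM in control midguts of day 3 (0.71, adjusted p = 0.00270). The median log2 fold changes on day 4 were -0.06 for synthesis and recycling, 0.23 for regulators, -0.25 for antioxidant enzymes, -0.12 for the other transferase folds and 0.13 for exporters, beside 0.02 for all genes.

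Between days, where 18.8% of all genes were called higher and 23.9% lower in Hnf4i midguts, and 17.0% higher and 22.2% lower in control midguts, the synthesis and recycling list had 5 genes higher and 2 lower on day 4 in Hnf4i midguts, and 5 higher and 1 lower in control midguts. The largest changes were those of CG17636 (1.84), CG4829 (-0.97) and Gclm (0.92), the modifier subunit partner of Gclc, in Hnf4i midguts, and of Men (2.30), CG17636 (1.24) and CG4829 (-0.94) in control midguts. Among regulators ref(2)P (2.22 in Hnf4i and 0.97 in control midguts) and Keap1 (0.74 and 0.84 in the same order) were higher in both genotypes, and Hr96 (0.70) in Hnf4i midguts. Among antioxidant enzymes the leading changes were MsrA (-1.13), Prx6c (-0.77) and Gtpx (0.75) in Hnf4i midguts, and Irc (1.63), Cat (0.99) and Prx2 (-0.96) in control midguts. Among the other transferase folds they were se (-1.89), Gdap1 (-1.46) and CG33177 (-1.28) in Hnf4i midguts, and se (-1.56), Gdap1 (-0.99) and AIMP3 (-0.88) in control midguts. Some of these genes were very low. On day 4 and day 3, se averaged 0.119 and 0.447 CPM in Hnf4i and 0.0859 and 0.245 CPM in control midguts. In the same order of days, CG33177 averaged 0.560 and 1.37 CPM in Hnf4i midguts, and Irc 2.20 and 0.709 CPM in control midguts. The call of se in control midguts was lost without control replicate 3 of day 3 (adjusted p = 0.0519) or control replicate 2 of day 4 (adjusted p = 0.0621), and in both genotypes without the day 4 libraries with fat body transcripts. Among exporters, CG10505 (1.03 in Hnf4i and 1.41 in control midguts) was higher on day 4, and MRP (-1.0 and -0.79) and rdog (-0.84 and -1.05) were lower. With library totals and no TMM factor the Hnf4i calls of Gtpx (0.48), Keap1 (0.48) and Hr96 (0.44) between days fell under the minimum fold, and Gclc was at the minimum fold on day 3 of silencing (-0.50) and not called.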

How the data were processed

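Polyadenylated RNA of dissected larval midguts was sequenced from stranded libraries (Illumina TruSeq) in 4 groups of 4 biological replicates. The deposited count table held whole-number counts per gene, not normalized. The authors' processing notes name FastQC 0.11.7, Trimmomatic 0.39, MultiQC 1.12, STAR 2.7.10b, the BDGP6 build, R 4.5.1 and DESeq2 1.49.3. Salmon stands in the study's general software list, which does not tie it to these counts. Beyond that the counter, and its strand setting, treatment of reads with several matches and annotation release, were not given in the sources used here. Deposited CPM values equal the counts divided by the library totals. A deposited table of the authors' own log2 fold changes and adjusted p-values was not used. Of 24254 rows, 6381 with no FlyBase gene identifier (0.0365 to 0.0489% of counts) were left out. Counts of 1 to 12 were even 2.15 times as often as odd, for which no cause was tested, and no counting intervals are given for that reason.

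Genes were tested with edgeR 4.0.16 (quasi-likelihood F test, TMM, 4 group means, all 16 libraries; R 4.3.3) after filterByExpr with a minimum count of 10 and a minimum total of 15, with Benjamini-Hochberg adjustment over 9801 genes. The SE is the size of the log2 fold change divided by the square root of F. The fit was tested on simulated data. Levels are TMM-scaled CPM, and per kilobase they are divided by the merged exon length in Ensembl's BDGP6 annotation, which held all 17873 gene identifiers. Tables were joined with pandas 2.3.3. Replicate numbers did not pair the libraries (correlation of deviations from -0.17 to 0.09 over 24 pairs with the same number).

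The members and lists were chosen with earlier results of these data known. The text names Hnf4, each member called, the highest member of each class, members under the filter, and up to 3 called genes per pathway list and comparison with the largest change. Of 70 list entries, 67 matched a distinct gene outside the family. Alternatives were DESeq2 1.42.0, its size factors in edgeR, no filter, no fold minimum, a replicate block, a fit of only the groups compared and each library left out. Library totals with no TMM factor, and a fit without 4 day 4 libraries with fat body transcripts, were added after seeing the data. No sequence is shown.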

Additional observations from a re-analysis of the deposited data

Results flagged for a closer look

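The interaction of silencing and day passed the test for 4 members. The log2 fold change of Hnf4i over control midguts on day 4 minus that on day 3 was -0.86 for GstD3, -0.84 for GstS1, -0.57 for GstD8 and 0.52 for GstE10. Those of GstD3 and GstS1 were called in every alternative, including each fit with 1 library left out.

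In 3 of the 128 groups of 4 libraries (32 members in 4 groups), 1 library lay farther from the others than Dixon's 95% critical value allows, where chance gives about 1 in 20. GstS1 had 561 CPM in Hnf4i replicate 4 of day 3, against 616 to 623 CPM in the other replicates of that group. GstD6 had 10.5 CPM in control replicate 3 of day 3, where the others had 14.6 to 15.2 CPM, and GstD7 had 150 CPM in the same library, where the others had 191 to 194 CPM. The day 3 call of GstD7 was among those lost without that library.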

How the results depend on the processing

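Of the 41 calls of members in the 5 comparisons, 33 were kept in every fit with 1 library left out and 28 in every alternative run. The kept calls include all 7 on day 4 and those of GstT1, GstT2 and GstT3 on day 3 between Hnf4i and control midguts. Among the alternatives, the fit without the libraries with fat body transcripts leaves 1 Hnf4i library of day 4. No value that was called turned its direction. Low members are limited by depth, since GstZ2 and GstE4 rest on few counts.

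Leaving out 1 library gave 7 to 8 members called between Hnf4i and control on day 4, 3 to 5 on day 3, 12 to 14 between days in Hnf4i midguts, 12 to 14 in control midguts and 2 to 6 for the interaction. With no fold minimum the counts were 14 on day 4, 8 on day 3, 21 between days in Hnf4i midguts, 18 in control midguts and 8 for the interaction, where 27.5%, 8.38%, 65.0%, 62.6% and 8.67% of all genes passed. With library totals and no TMM factor, 7 members were called between Hnf4i and control on day 3. Over all genes, 213 were then called higher and 212 lower, in place of 148 and 241 with TMM. Without the day 4 libraries with fat body transcripts, 11 were called on day 4 and 9 for the interaction; fewer libraries enter these fits, and the cause was not tested. DESeq2 called 7 members on day 4, 4 on day 3, 14 between days in Hnf4i midguts, 14 in control midguts and 5 for the interaction. Shares of all genes called by DESeq2, and with 1 library left out, are not given here.

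Class sums are means of scaled CPM, and for some of them the order between days depends on the scaling. That order turned for the family and Epsilon sums in both genotypes, for the Delta sum in Hnf4i midguts and for the Zeta sum in control midguts. With library totals and no TMM factor the family came to 4942 CPM in Hnf4i of day 4, 4742 in control of day 4, 5701 in Hnf4i of day 3 and 5376 in control of day 3. The Theta sum was 330, 585, 206 and 327 CPM and the Omega sum 390, 258, 307 and 226 CPM in the same order of groups. Both kept their order between days.

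With the replicate block the counts were 7 on day 4, 4 on day 3, 13 between days in each genotype and 4 for the interaction, the same members as without it. None of the 24 correlations between libraries with the same number was over 0.1, so that the numbers do not pair the libraries. Of the other genes named, Hr96 on day 4 was under the minimum fold with the block.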
